A study of Mus musculus with 12 samples.

Results

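AU-rich elements are short stretches of A and U in the 3′ untranslated ends of many cytokine and growth-control mRNAs, and the proteins that bind them set how long those mRNAs last. Genes for 6 such proteins were looked for by symbol among the probe sets of a mouse spleen array series: Zfp36, Zfp36l1, Zfp36l2, Elavl1, Khsrp and Hnrnpd. Of the 6 genes, 5 were matched to a probe set, with 9 probe sets among them, and Khsrp was not analysed here. The whole table held 22626 probe sets, of which 20380 named 1 gene, and 12393 different genes. The rule matches gene symbols only, though the genes were proposed with earlier results of these arrays known.

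The study measured total RNA from the spleens of 12 mice on Affymetrix MOE430A 2.0 arrays, 1 mouse per array. Its 4 groups of 3 were DUSP1-/- mice given LPS, DUSP1+/+ mice given LPS, untreated DUSP1-/- mice and untreated DUSP1+/+ mice. LPS, the endotoxin of E. coli, was injected into the abdomen at 10 µg per g of body weight, and spleens were taken 6 h later. The design asks how loss of DUSP1 changes the spleen's transcript response to endotoxin. The kind of DUSP1 allele and the strain, age and sex of the mice are not given in the sources used here, and no further allele or agent is named for any group.

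Zfp36 encodes tristetraprolin (TTP), which binds AU-rich elements in mRNAs such as that of Tnf and brings in the CCR4-NOT complex, which shortens the poly(A) tail so that the mRNA is degraded. Zfp36l1 and Zfp36l2 encode its closest relatives, which act the same way and are needed together in developing lymphocytes. Elavl1 encodes HuR, which binds AU- and U-rich sites and generally stabilises the mRNA. Hnrnpd encodes AUF1, several isoforms of 1 gene that shorten the life of some targets and lengthen that of others, and Khsrp encodes KSRP, which promotes decay. The kinase p38, through MK2, phosphorylates TTP, which weakens its decay activity and protects the protein from breakdown. DUSP1 is a phosphatase that removes the activating phosphates of p38 and JNK. The arrays measured transcripts, so protein amount and phosphorylation were not measured.

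The promoters of the 3 genes with a change past the threshold in at least 1 comparison below are printed from RefSeq (build GRCm38.p6), each from 250 bases before to 50 bases after the annotated start, 5′ to 3′ on the gene's strand. Of the 6 genes, 5 had an entry. The Zfp36 promoter is chr7:28379179-28379478, the Zfp36l1 promoter chr12:80112964-80113263 and the Hnrnpd promoter chr5:99978889-99979188, all on the minus strand. Capitals mark matches to the searched motifs.
Zfp36: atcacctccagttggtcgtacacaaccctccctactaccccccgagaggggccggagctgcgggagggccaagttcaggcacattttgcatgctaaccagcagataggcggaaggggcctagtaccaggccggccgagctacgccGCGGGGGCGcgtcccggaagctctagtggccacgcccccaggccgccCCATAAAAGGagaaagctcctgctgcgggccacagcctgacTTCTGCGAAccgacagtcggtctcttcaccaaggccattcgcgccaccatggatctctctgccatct
Zfp36l1: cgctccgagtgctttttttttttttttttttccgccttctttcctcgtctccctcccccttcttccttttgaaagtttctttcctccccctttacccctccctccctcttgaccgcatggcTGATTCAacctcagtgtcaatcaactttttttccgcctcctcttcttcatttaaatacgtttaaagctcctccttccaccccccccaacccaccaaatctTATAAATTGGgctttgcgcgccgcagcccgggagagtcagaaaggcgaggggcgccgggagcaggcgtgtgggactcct
Hnrnpd: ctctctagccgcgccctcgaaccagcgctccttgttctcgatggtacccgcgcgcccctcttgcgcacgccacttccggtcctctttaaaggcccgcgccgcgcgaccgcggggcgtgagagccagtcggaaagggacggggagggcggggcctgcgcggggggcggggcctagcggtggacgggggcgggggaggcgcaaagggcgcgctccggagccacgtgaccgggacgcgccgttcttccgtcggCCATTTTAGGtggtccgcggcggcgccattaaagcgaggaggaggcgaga

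Motifs searched on both strands were AP-1 as TGANTCA, CRE as TGACGTCA, EGR as GCGNGGGCG, the CArG box and the NF-kB site by their usual consensus, TATAAA, GAS as TTCNNNGAA, and CCAAT. In the Zfp36 promoter, counting the start base as 0, an EGR match (GCGGGGGCG) began at -105, a CArG box (CCATAAAAGG), the site bound by serum response factor, at -58, and a GAS match (TTCTGCGAA), the form bound by STAT factors, at -17. Among 32851 promoters of the same length, 5.55% held an EGR match, 1.63% a CArG box and 8.3% a GAS match. In the Zfp36l1 promoter an AP-1 match (TGATTCA) began at -129 and TATAAA at -29, and the last base of TATAAA was also the first of a reverse-strand CCAAT match at -24. AP-1 matches were found in 7.81%, TATAAA in 13.6% and CCAAT in 37.4% of promoters. The Hnrnpd window held a CArG box (CCATTTTAGG) at 0. The Elavl1 window held 2 CCAAT matches and the Khsrp window 1. None of these 5 windows held the NF-kB letters, found in 8.46% of promoters, or the CRE letters, found in 1.79%. These are letter matches in the reference and were not measured as binding sites.

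Values are RMA intensities, which the submitters deposited on a linear scale. Array medians lay between 47 and 63, and all values between 6 and 15228. The Dusp1 probe set did not check the genotype labels: it read 4963, 2948 and 4996 in DUSP1-/- LPS spleens, 2248, 2142 and 2116 in DUSP1+/+ LPS spleens, 677, 1528 and 1443 in DUSP1-/- controls and 479, 1354 and 627 in DUSP1+/+ controls. Signal was thus not lower in the arrays labelled DUSP1-/-. The sources used here do not say whether this probe set reads a stretch that the mutation removed, so genotypes below are those of the labels. The mean log2 intensity of 5 B cell markers was 9.75 to 11.26 over the 12 arrays, and that of 6 red pulp macrophage markers 7.4 to 10.23. The B cell markers show lymphoid tissue and do not by themselves identify spleen. Pancreas transcripts also stood in 3 control arrays: the mean log2 intensity of 5 acinar genes was 11.85 in DUSP1-/- control 1, 8.8 in DUSP1-/- control 3 and 12.93 in DUSP1+/+ control 1, against 4.09 to 5.21 in the other arrays. Control arrays DUSP1+/+ 2 and 3 read 35 and 47 for Xist and 316 and 53 for the Y-linked Eif2s3y, where the other 10 read 1101 to 3949 and 7 to 10. These arrays make up most of the DUSP1+/+ control group. What sets them apart therefore cannot be fully told from LPS in DUSP1+/+ spleens, or from genotype among controls. Several member values below are also given without these arrays.

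**Figure D1:**
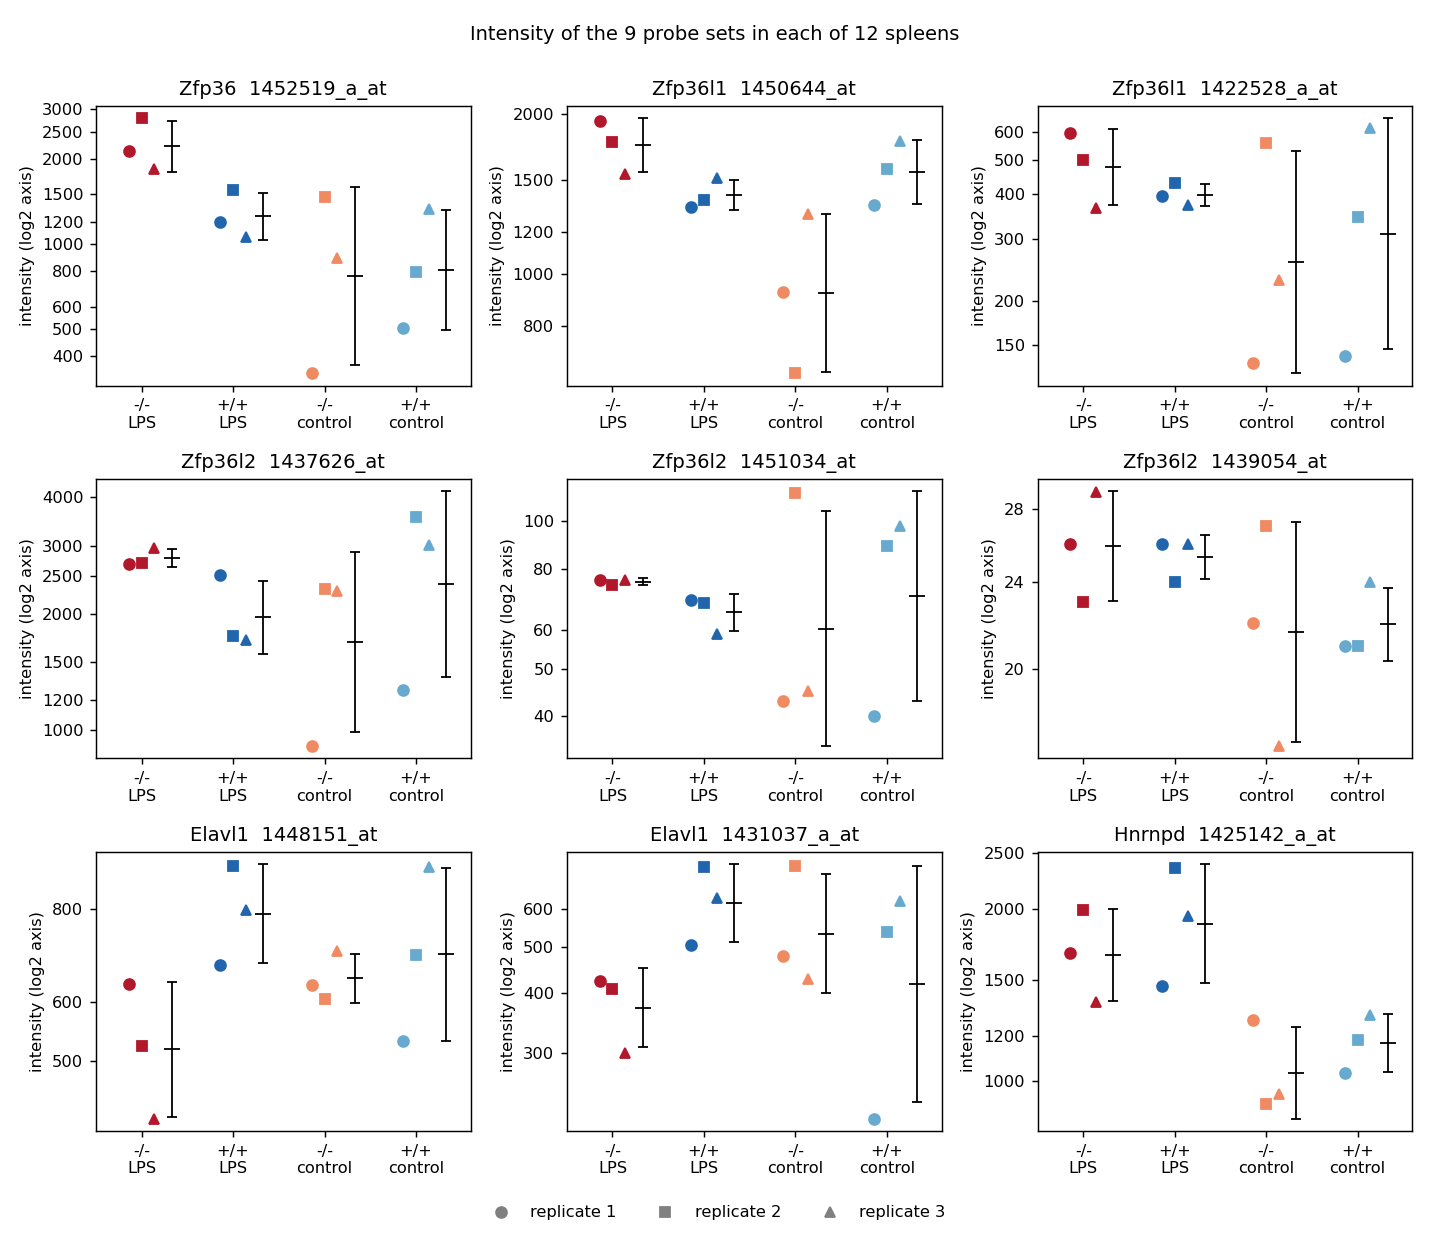
Intensity of each of the 9 member probe sets (log2-scaled vertical axes, each panel with its own range) in the 12 spleens, by DUSP1 genotype and treatment. Symbols are replicates 1 to 3, and the bar beside each group is the mean ± SD of the log2 values. Zfp36 is highest in the 3 DUSP1-/- LPS spleens (1846 to 2784), Hnrnpd is higher in all 6 LPS spleens than in any control, and Elavl1 is lower in DUSP1-/- LPS than in DUSP1+/+ LPS spleens.

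Zfp36 was highest in DUSP1-/- spleens after LPS. Its probe set (1452519_a_at) read 2127, 2784 and 1846 in DUSP1-/- LPS spleens, 1201, 1549 and 1058 in DUSP1+/+ LPS spleens, 350, 1464 and 896 in DUSP1-/- controls and 503, 794 and 1327 in DUSP1+/+ controls. All 3 DUSP1-/- LPS spleens stood above every other spleen, while DUSP1+/+ LPS spleens overlapped both control groups. The LPS difference in DUSP1-/- spleens was 1.52 ± 0.48 on the log2 scale (SE, n = 3 per group), a 2.88-fold difference, with an adjusted p of 0.0656 by limma with Benjamini-Hochberg adjustment over all 22626 probe sets, and so missed the threshold of 0.05. It passed in 7 of 23 alternatives, median centring (adjusted p = 0.0229) among them. In DUSP1+/+ spleens it was 0.63 ± 0.48 (adjusted p = 0.58), with 1 of 3 LPS arrays above all controls. That value was 0.29 without DUSP1+/+ control 1, a pancreas-bearing array, 0.99 without DUSP1+/+ control 3 and 1.32 without DUSP1+/+ controls 2 and 3 together. Averaged over both genotypes, Zfp36 rose by 1.08 ± 0.34 on the log2 scale, or 2.11-fold, with an adjusted p of 0.0482. An exact two-sided permutation test of the 6 LPS against 6 control arrays within genotype gave an unadjusted p = 0.015, where the smallest possible p is 0.005. Of the 9 member sets, this test gave 0.005 for Hnrnpd and 0.05 to 0.96 for the rest. It was not run over all probe sets.

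Zfp36 varied more among controls than among LPS spleens. The 2 lowest values, 350 and 503, were those of DUSP1-/- control 1 and DUSP1+/+ control 1, both with pancreas transcripts. DUSP1-/- control 3, which held pancreas transcripts too, read 896. Those 2 low arrays also had the lowest mean log2 intensity of liver genes, 4.85 and 4.77 against 6.94 or more elsewhere. DUSP1-/- control 1 had the highest mean of erythroid markers as well, 10.09. The highest DUSP1-/- control, replicate 2 with 1464, also held the highest control readings of Il6, 59 against 11 to 14, and Cxcl2, 53 against 12 to 19. Without DUSP1-/- control 1 the DUSP1-/- difference was 0.95 (adjusted p = 0.147). Without DUSP1-/- control 2 the DUSP1-/- difference passed the threshold (adjusted p = 0.024), and without the 3 arrays with pancreas transcripts, which leaves DUSP1-/- control 2 as the lone DUSP1-/- control, it was 0.60 (adjusted p = 0.327). The averaged call was lost in 10 of 12 fits that left out 1 array, all but those without DUSP1-/- control 2 or DUSP1+/+ control 3, with adjusted p up to 0.105, and it was 0.44 (adjusted p = 0.233) without the 3 pancreas-bearing arrays. The part of pancreas or of other tissues and cells in these values was not tested.

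On its brighter probe set, Zfp36l1 rose after LPS in DUSP1-/- spleens. In DUSP1+/+ spleens that set read slightly lower after LPS, without passing the threshold. The brighter of its probe sets (1450644_at) read 1943, 1774 and 1543 in DUSP1-/- LPS spleens, 1339, 1378 and 1514 in DUSP1+/+ LPS spleens, 926, 653 and 1297 in DUSP1-/- controls and 1348, 1573 and 1777 in DUSP1+/+ controls. The low group was that of the DUSP1-/- controls, all 3 of which lay below every other spleen. DUSP1+/+ controls overlapped both LPS groups, which did not overlap each other. The DUSP1-/- difference was 0.92 ± 0.23 (SE, n = 3 per group), or 1.89-fold, with an adjusted p of 0.0263, and the DUSP1+/+ difference was -0.14 ± 0.23 (adjusted p = 0.842). The difference between the 2 responses was 1.06 ± 0.33, with an unadjusted p of 0.00828 and an adjusted p of 0.66, so the responses were not shown to differ. Among controls, DUSP1-/- minus DUSP1+/+ was -0.76 ± 0.23, with an unadjusted p of 0.00814 and an adjusted p of 1.

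Each DUSP1-/- LPS array was needed for the Zfp36l1 call: without replicate 1, 2 or 3 of that group the adjusted p was 0.105, 0.0643 and 0.0514. It was also lost without DUSP1-/- control 1 (0.05) or control 2 (0.0626). Without the 3 pancreas-bearing arrays the DUSP1-/- difference was 1.42 (adjusted p = 0.00504), the control difference -1.36 (adjusted p = 0.0288) and the difference of responses 1.67 (adjusted p = 0.0363), but all of these rest on DUSP1-/- control 2 alone for that group, which had the lowest reading, 653, and is assumed to vary like the other groups.

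The other Zfp36l1 probe set (1422528_a_at) did not follow the first across the 12 arrays (r = 0.29 on log2 intensity, as a description). It read 595, 501 and 365 in DUSP1-/- LPS spleens, 395, 431 and 373 in DUSP1+/+ LPS spleens, 134, 559 and 230 in DUSP1-/- controls and 140, 346 and 616 in DUSP1+/+ controls. Control values spanned a wider range than LPS values in both genotypes, and the lowest were again DUSP1-/- control 1 and DUSP1+/+ control 1. Its LPS difference was 0.89 ± 0.56 in DUSP1-/- spleens (adjusted p = 0.375) and 0.36 ± 0.56 in DUSP1+/+ spleens (adjusted p = 0.829), and without the 3 pancreas-bearing arrays these were -0.23 and -0.21. The DUSP1-/- value was 0.41 without control 1 and 1.44 without control 2, and the DUSP1+/+ value 0.86 without control 3. The rise of Zfp36l1 therefore rests on 1 of its 2 probe sets.

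Zfp36l2 had the brightest probe set of the family and no change past the threshold. That set (1437626_at) read 2694, 2707 and 2964 in DUSP1-/- LPS spleens, 2517, 1750 and 1708 in DUSP1+/+ LPS spleens, 913, 2321 and 2294 in DUSP1-/- controls and 1271, 3557 and 3007 in DUSP1+/+ controls. The DUSP1-/- LPS values lay close together and above both the DUSP1+/+ LPS and the DUSP1-/- control values, whereas DUSP1+/+ controls lay on both sides of the LPS values of either genotype. Its LPS difference was 0.72 ± 0.43 in DUSP1-/- spleens (adjusted p = 0.342) and -0.28 ± 0.43 in DUSP1+/+ spleens (adjusted p = 0.822). The DUSP1-/- value was 0.27 without DUSP1-/- control 1 and 0.26 without the 3 pancreas-bearing arrays, and the DUSP1+/+ value -0.74 without DUSP1+/+ control 1. Without DUSP1+/+ controls 2 and 3, the arrays apart in Xist and Eif2s3y, the DUSP1+/+ value was 0.62 and rested on 1 control array with pancreas transcripts.

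A second Zfp36l2 set (1451034_at) was far dimmer, with 76, 74 and 76 in DUSP1-/- LPS spleens, 69, 68 and 59 in DUSP1+/+ LPS spleens, 43, 114 and 45 in DUSP1-/- controls and 40, 89 and 98 in DUSP1+/+ controls. It tracked the brighter set (r = 0.742) and likewise showed controls spread on both sides of the LPS values. Its LPS difference was 0.32 ± 0.40 in DUSP1-/- spleens (adjusted p = 0.703) and -0.11 ± 0.40 in DUSP1+/+ spleens (adjusted p = 0.935), where each of 3 other scalings turned the sign (0.008 to 0.014). The third set (1439054_at) read 17 to 29 over all arrays, below 30.49, the intensity at the 40th percentile of probe set means, and is given only as a level.

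Elavl1 read lower in DUSP1-/- than in DUSP1+/+ spleens after LPS on both of its probe sets, without passing the threshold. The first (1448151_at) read 634, 524 and 418 in DUSP1-/- LPS spleens, 672, 912 and 797 in DUSP1+/+ LPS spleens, 632, 605 and 702 in DUSP1-/- controls and 532, 693 and 909 in DUSP1+/+ controls. Every DUSP1-/- LPS value lay below every DUSP1+/+ LPS value, and both overlapped the controls of their genotype. DUSP1-/- minus DUSP1+/+ after LPS was -0.60 ± 0.23 (SE, n = 3 per group), with an unadjusted p of 0.0226 and an adjusted p of 0.433. The LPS difference was -0.32 ± 0.23 in DUSP1-/- spleens (adjusted p = 0.455) and 0.18 ± 0.23 in DUSP1+/+ spleens (adjusted p = 0.779).

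The second Elavl1 set (1431037_a_at) read 424, 409 and 301 in DUSP1-/- LPS spleens, 506, 735 and 632 in DUSP1+/+ LPS spleens, 479, 738 and 429 in DUSP1-/- controls and 219, 537 and 624 in DUSP1+/+ controls. The DUSP1-/- LPS spleens were below both DUSP1+/+ LPS spleens and DUSP1-/- controls with no overlap, and the lowest value of all was DUSP1+/+ control 1. DUSP1-/- minus DUSP1+/+ after LPS was -0.72 ± 0.37 (adjusted p = 0.657). The LPS difference was -0.51 ± 0.37 in DUSP1-/- spleens (adjusted p = 0.458) and 0.56 ± 0.37 in DUSP1+/+ spleens (adjusted p = 0.498), and the difference of the 2 responses was -1.07 ± 0.52 (adjusted p = 0.954). The DUSP1-/- value was -0.28 without DUSP1-/- control 2 and -0.98 without the 3 pancreas-bearing arrays (adjusted p = 0.0603). The DUSP1+/+ value was 0.09 without DUSP1+/+ control 1, 0.85 without control 3 and 1.495 without controls 2 and 3 together, and the difference of responses -0.60 without control 1 and -2.01 without controls 2 and 3. The 2 sets correlated at r = 0.736 over the 12 arrays.

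Hnrnpd rose after LPS over both genotypes together, with a difference of like size in each. Its probe set (1425142_a_at) read 1676, 1987 and 1374 in DUSP1-/- LPS spleens, 1464, 2356 and 1940 in DUSP1+/+ LPS spleens, 1279, 910 and 951 in DUSP1-/- controls and 1032, 1178 and 1303 in DUSP1+/+ controls. All 6 LPS spleens lay above all 6 controls. How many of all probe sets separated in this way was not counted. The averaged LPS response was 0.69 ± 0.16 on the log2 scale, or 1.61-fold, with a 95% interval of 0.34 to 1.04 and an adjusted p of 0.0114. The exact two-sided permutation test within genotype gave an unadjusted p = 0.005, the smallest it can give. Within DUSP1-/- spleens the difference was 0.68 ± 0.22 (adjusted p = 0.0756) and within DUSP1+/+ spleens 0.69 ± 0.22 (adjusted p = 0.103), neither past the threshold alone. The difference of the 2 responses was -0.01 ± 0.32, with a 95% interval of -0.71 to 0.69, so a difference of up to about that size in either direction is within the interval. By absolute size the averaged difference stood at the 77.9th percentile of all probe sets, of which 19.8% passed for that comparison. The averaged call held in all 22 alternatives tried, with adjusted p between 0.00479 and 0.0391.

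**Figure D2:**
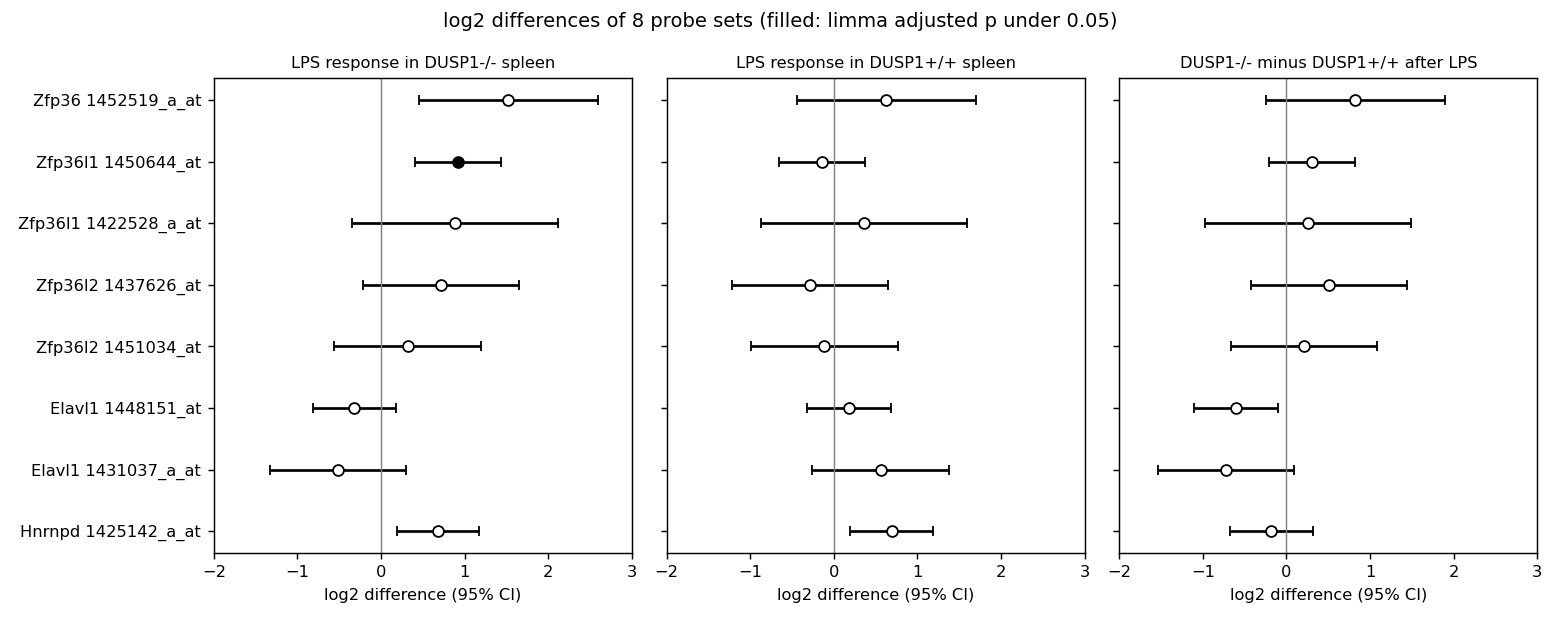
log2 differences (points) with 95% confidence intervals (bars) for 8 member probe sets in 3 comparisons, with the dimmest Zfp36l2 set left out. Filled points passed an adjusted p of 0.05, which only Zfp36l1 1450644_at in DUSP1-/- spleens did (0.92). Both Elavl1 sets lie left of 0 in DUSP1-/- minus DUSP1+/+ after LPS.

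Counted over the 9 probe sets, 1 passed for LPS in DUSP1-/- spleens, where 12.7% of all probe sets did, 5.13% higher and 7.55% lower. None passed for LPS in DUSP1+/+ spleens, where 6.59% of all probe sets did, 3.39% higher and 3.2% lower. None of the 9 passed for DUSP1-/- minus DUSP1+/+ after LPS, where 0.318% of all probe sets did, 0.168% higher and 0.15% lower, nor for that difference in controls or for the difference of responses, where 0% did. At an unadjusted p under 0.05, limma gave 3 of 9 for LPS in DUSP1-/- spleens, 1 of 9 in DUSP1+/+ spleens and 1 of 9 in each of the other 3 comparisons, beside 25.1%, 18.7%, 8.84%, 1.49% and 5.44% of all probe sets. For the averaged LPS response, 2 of 9 passed, both higher, where 19.8% of all probe sets passed and 8.18% were higher. At an unadjusted limma p under 0.05 this comparison gave 3 of 9, beside 31.1% of all probe sets. The median log2 difference of the 9 sets was 0.68 in DUSP1-/- and 0.21 in DUSP1+/+ spleens, beside -0.05 and -0.02 over all probe sets. Members are not independent replicates, since 3 of the 5 genes have several sets.

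After LPS, the groups of 3 arrays did not overlap between genotypes for 6 of 9 member sets, beside 16.8% of all probe sets. The 4 sets higher in DUSP1-/- were those of Zfp36, Zfp36l1 (1450644_at) and Zfp36l2 (1437626_at and 1451034_at), beside 8.08% of all sets, and the 2 lower were those of Elavl1, beside 8.77%. The differences were 0.82 ± 0.48 for Zfp36 (adjusted p = 0.743), 0.31 ± 0.23 for Zfp36l1 (adjusted p = 0.844) and 0.51 ± 0.43 and 0.21 ± 0.40 for the Zfp36l2 sets (adjusted p = 0.874 and 0.979). The remaining Zfp36l1 set differed by 0.26 ± 0.56 (adjusted p = 0.986) and Hnrnpd by -0.18 ± 0.22 (adjusted p = 0.954). With 3 spleens a group, an exact test of a single set cannot go below p = 0.1. In controls, 1 of 9 sets did not overlap between genotypes, that of Zfp36l1 (1450644_at), which was lower in DUSP1-/-, beside 2.46% of all sets, 1.45% higher and 1.01% lower. The LPS groups did not overlap with their controls for 5 of 9 sets in DUSP1-/- spleens, beside 26.2% of all sets, and for 1 of 9, higher, in DUSP1+/+ spleens, beside 22.2%, of which 9.6% were higher.

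By mean log2 intensity, Zfp36 ran in the order DUSP1-/- LPS, DUSP1+/+ LPS, DUSP1+/+ control and DUSP1-/- control, and of these neighbours only the first pair did not overlap. Zfp36l1 (1450644_at) ran DUSP1-/- LPS, DUSP1+/+ control, DUSP1+/+ LPS and DUSP1-/- control, with only the last pair apart. Zfp36l2 (1437626_at) ran DUSP1-/- LPS, DUSP1+/+ control, DUSP1+/+ LPS and DUSP1-/- control, with every neighbouring pair overlapping. Elavl1 (1448151_at) ran DUSP1+/+ LPS, DUSP1+/+ control, DUSP1-/- control and DUSP1-/- LPS, again with overlap between all neighbours. Hnrnpd ran DUSP1+/+ LPS, DUSP1-/- LPS, DUSP1+/+ control and DUSP1-/- control, with a gap between the LPS pair and the control pair only.

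LPS also moved markers of the cells that make up the spleen, and in whole-organ RNA fewer cells of a type and less RNA per cell cannot be told apart. The mean log2 intensity of 5 T cell markers was 6.73 to 7.15 in DUSP1-/- LPS and 6.49 to 7.43 in DUSP1+/+ LPS spleens, against 7.29 to 9 in DUSP1-/- and 8.24 to 8.66 in DUSP1+/+ controls. That of 6 red pulp macrophage markers was 8.24 to 8.87 in DUSP1-/- LPS and 7.4 to 7.8 in DUSP1+/+ LPS spleens, against 9.08 to 9.96 in DUSP1-/- and 9.79 to 10.23 in DUSP1+/+ controls. The means of both lists were lower in LPS than in control arrays of the same genotype with no overlap. By gene, 2 of 5 T cell markers fell in DUSP1-/- and 1 of 5 in DUSP1+/+ spleens, and 3 of 6 and 5 of 6 red pulp macrophage markers. Of B cell markers 1 of 5 fell in DUSP1-/- and none in DUSP1+/+ spleens, and no neutrophil or erythroid marker passed in either. Of all genes, 9.71% and 4.16% were called lower. Slc40a1, the iron exporter ferroportin, read 24 to 203 in LPS spleens and 440 to 3608 in controls. Spic, the transcription factor of these macrophages, had a higher range after LPS, 426 to 1006 against 143 to 592. It passed the threshold in neither genotype. B cell markers read 9.75 to 10.02 and 9.89 to 10.5 in DUSP1-/- and DUSP1+/+ LPS spleens, against 9.99 to 11.17 and 10.85 to 11.26 in DUSP1-/- and DUSP1+/+ controls, and the neutrophil and erythroid lists overlapped between LPS and control arrays in both genotypes. Liver transcripts (5 genes) were at 7.49 to 9.99 in DUSP1-/- LPS and 6.94 to 9.18 in DUSP1+/+ LPS arrays, against 4.85 to 11.06 in DUSP1-/- and 4.77 to 8.61 in DUSP1+/+ controls, with the top value in DUSP1-/- control 2. Lung transcripts (6 genes) differed by genotype label. They were at 4.81 to 7.42 in DUSP1-/- LPS and 4.71 to 5.19 in DUSP1+/+ LPS arrays. In controls they were at 4.48 to 7.52 in DUSP1-/- and 4.57 to 5.72 in DUSP1+/+ arrays. The median DUSP1-/- minus DUSP1+/+ difference of these genes was 1.195 after LPS and 1.136 in controls, with no lung gene past the threshold. Lung transcripts thus cannot be fully told from genotype in the comparisons after LPS. The part of these cell types and tissues in the members' values was not tested.

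**Figure D3:**
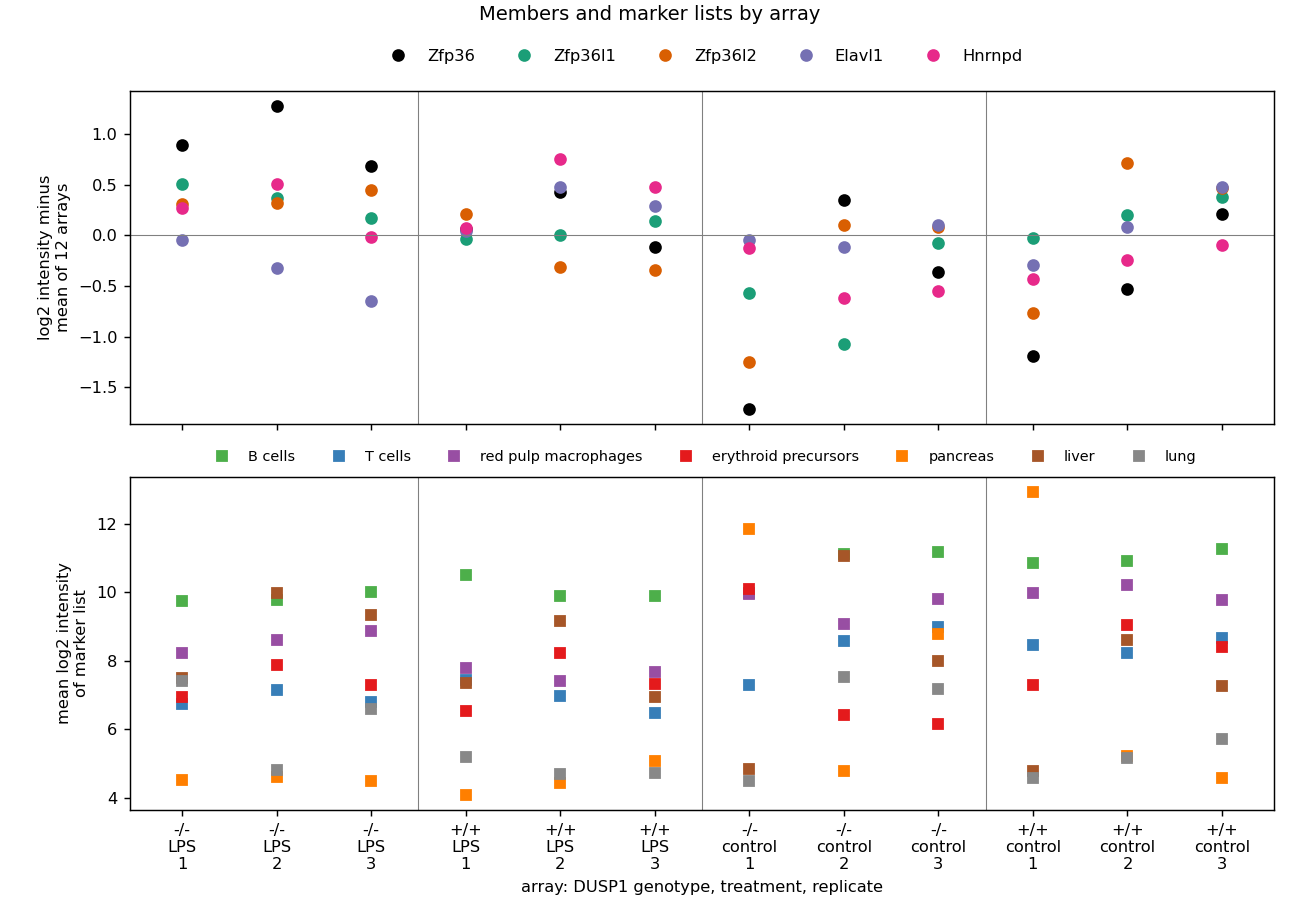
Upper plot: log2 intensity of the 5 representative member probe sets minus each set's mean over the 12 arrays. Lower plot: mean log2 intensity of 7 marker lists in the same arrays, so that the control arrays with pancreas transcripts (11.85, 8.8 and 12.93) can be read beside the members. Zfp36 and Zfp36l2 are lowest in DUSP1-/- control 1 and DUSP1+/+ control 1.

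Among 8098 genes above the 40th percentile, those whose log2 intensity followed Zfp36 most closely over the 12 arrays were Rrad (r = 0.977), Tnfsf9 (r = 0.968) and Tgif2 (r = 0.966). For Zfp36l1 they were Arf6 (r = 0.923), Scaf8 (r = 0.906) and App (r = 0.898). For Zfp36l2 they were Mcl1 (r = 0.923), which is itself an mRNA with AU-rich elements, Btg1 (r = 0.916) and Ppp1r21 (r = 0.909). Elavl1 was followed by Ubfd1 (r = 0.936), Nfu1 (r = 0.933) and Polr2e (r = 0.925), and Hnrnpd by Farsa (r = 0.952), Lipt2 (r = 0.952) and Nudcd3 (r = 0.935). No gene appeared under more than 1 member. The points of each r share the arrays, their tissue mixture and the 4 groups, and these are the highest of many values, so they describe these arrays only.

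Other proteins that bind AU-rich or further 3′ end elements changed in small numbers. Of 43 written genes 36 were measured, each by its brightest probe set, and after LPS 3 rose and none fell in DUSP1-/- spleens, 8.33% of the list beside 15.2% of all 12393 genes, 5.54% higher and 9.71% lower. In DUSP1+/+ spleens 2 rose and none fell, 5.56% beside 8.09%, 3.93% higher and 4.16% lower. The list's median log2 difference was 0.11 and 0.08, beside -0.06 and -0.03 over all genes. Zc3h12a, which encodes Regnase-1, an endonuclease that cleaves cytokine mRNAs at stem-loops, read 374, 553 and 288 in DUSP1-/- LPS and 267, 416 and 309 in DUSP1+/+ LPS spleens, against 29, 107 and 131 in DUSP1-/- and 80, 84 and 107 in DUSP1+/+ controls. No LPS value overlapped a control value. It rose by 2.40 ± 0.49 in DUSP1-/- spleens (adjusted p = 0.00917) and by 1.86 in DUSP1+/+ spleens (adjusted p = 0.0464), the second call being lost in 9 of 12 fits without 1 array (adjusted p up to 0.164). Cirbp, a cold-inducible RNA-binding protein, rose by 2.41 and 1.84 (adjusted p = 0.00408 and 0.0249), the second lost without DUSP1+/+ control 1 or 2 or LPS 2 or 3 (adjusted p up to 0.12). Hnrnpdl, the closest relative of Hnrnpd, rose by 1.32 ± 0.31 in DUSP1-/- spleens (adjusted p = 0.0187), a call lost without DUSP1-/- LPS 1 or 3 (adjusted p up to 0.0754). Over all alternatives the counts of calls were 1 to 6 in DUSP1-/- and 0 to 3 in DUSP1+/+ spleens. Averaged over both genotypes 5 rose and 1 fell, 16.7% beside 22.9% of all genes. Ncl, the nucleolar protein nucleolin, was among those that rose (1.27, adjusted p = 0.0397), a call lost in 7 of 12 fits without 1 array (adjusted p up to 0.0875).

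Calls were few among the measured genes of deadenylation and poly(A) binding, a list wider than the CCR4-NOT complex. Of 24 written genes 19 were measured, and Cnot1, Cnot10, Cnot11, Pan3 and Btg3 were not. Of 19 measured genes of the CCR4-NOT complex and poly(A) binding, 1 fell in DUSP1-/- spleens and none rose, and the same counts held in DUSP1+/+ spleens, 5.26% in each beside 15.2% and 8.09% of all genes. Over all alternatives the counts were 0 to 3 and 0 to 2. Paip2, an inhibitor of poly(A)-binding protein, fell by 1.74 in DUSP1-/- spleens (adjusted p = 0.033) and had a difference of -1.499 in DUSP1+/+ spleens (adjusted p = 0.0883), the call being lost without DUSP1-/- control 1 or 2 or LPS 1 or 2 (adjusted p up to 0.124). Tob1, an adaptor between CCR4-NOT and its targets, fell by 2.15 in DUSP1+/+ spleens (adjusted p = 0.00793), with 39, 34 and 35 in LPS spleens against 115, 154 and 229 in controls. That call was lost without DUSP1+/+ controls 2 and 3 together, which leaves 1 control array for that group. In DUSP1-/- spleens Tob1 had a difference of -1.14 (adjusted p = 0.0809). The difference of responses passed for neither gene (adjusted p = 1 for Paip2 and 0.986 for Tob1). Averaged over both genotypes 3 fell, 15.8% of the list beside 22.9% of all genes: Tob1, Paip2 and Btg2, an antiproliferative relative of Tob1. The Btg2 call (adjusted p = 0.0422) was lost in 10 of 12 fits without 1 array (adjusted p up to 0.106).

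Of 25 measured genes of decapping, the exosome and 5′ to 3′ decay, 2 rose in DUSP1-/- spleens (8% beside 15.2% of all genes) and 1 in DUSP1+/+ spleens (4% beside 8.09%), and none fell. Over all alternatives the counts were 0 to 5 and 0 to 6, with 0 in DUSP1-/- spleens without DUSP1-/- control 3 or LPS 1 or 3, and 0 in DUSP1+/+ spleens without DUSP1+/+ LPS 2 or 3. Dis3, a catalytic nuclease of the exosome, rose by 1.58 ± 0.39 in DUSP1-/- spleens (adjusted p = 0.0241), with 500, 315 and 469 in LPS spleens against 187, 176 and 84 in controls, a call lost without DUSP1-/- control 3 or LPS 1 or 3 (adjusted p up to 0.0962). Eif4e2, a cap-binding repressor that TTP complexes use, rose by 0.98 (adjusted p = 0.0432), a call lost in 9 of 12 fits without 1 array (adjusted p up to 0.125). Exosc1, an exosome subunit, rose by 1.40 in DUSP1+/+ spleens (adjusted p = 0.0129), a call lost without DUSP1+/+ LPS 2 or 3 (adjusted p up to 0.0707). Averaged over both genotypes 5 of 25 rose, 20% beside 22.9% of all genes, Exosc2 by 1.09 (adjusted p = 0.00662).

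Genes of the p38, MK2 and PP2A axis that acts on TTP, a list of kinases, phosphatase subunits and adaptors, changed in both directions. Of 24 measured genes, 4 rose and 4 fell in DUSP1-/- spleens (33.3% beside 15.2% of all genes), and 1 rose and 2 fell in DUSP1+/+ spleens (12.5% beside 8.09%). Over all alternatives the counts of calls were 3 to 10 and 2 to 6, with 4 in DUSP1-/- spleens without DUSP1-/- LPS 1 or 3, and 6 and 5 in DUSP1+/+ spleens without DUSP1-/- control 1 and control 2. Of those that fell in DUSP1-/- spleens, 2, Ywhab and Ywhah (-0.81 and -0.62, adjusted p = 0.00886 and 0.0352), encode adaptors that bind phosphorylated proteins, and were named after their values were seen. Mapk14, which encodes p38 alpha, read 144, 229 and 158 in DUSP1-/- LPS and 333, 328 and 283 in DUSP1+/+ LPS spleens, against 823, 994 and 1190 in DUSP1-/- and 963, 1099 and 1323 in DUSP1+/+ controls. It was the gene of this list with the steepest fall, by 2.52 in DUSP1-/- and by 1.83 in DUSP1+/+ spleens (adjusted p = 8.11e-05 and 0.000955). DUSP1-/- minus DUSP1+/+ after LPS was -0.86 ± 0.22 (adjusted p = 0.182). Map2k6, a kinase that activates p38, fell by 1.69 in each genotype (adjusted p = 0.00396 and 0.00685). Its DUSP1+/+ call was lost without DUSP1+/+ controls 2 and 3 together, which leaves 1 control array for that group. Mapkapk2, which encodes MK2, rose by 1.35 ± 0.28 in DUSP1-/- spleens (adjusted p = 0.00953) and had a difference of 0.87 ± 0.28 in DUSP1+/+ spleens (adjusted p = 0.0967). Dusp1 itself rose by 1.87 ± 0.41 in arrays labelled DUSP1-/- (adjusted p = 0.0132), lost without DUSP1-/- LPS 1 or 3 (adjusted p up to 0.0596), and by 1.55 ± 0.41 in DUSP1+/+ spleens (adjusted p = 0.0487), lost in 8 of 12 such fits (adjusted p up to 0.16).

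**Figure D4:**
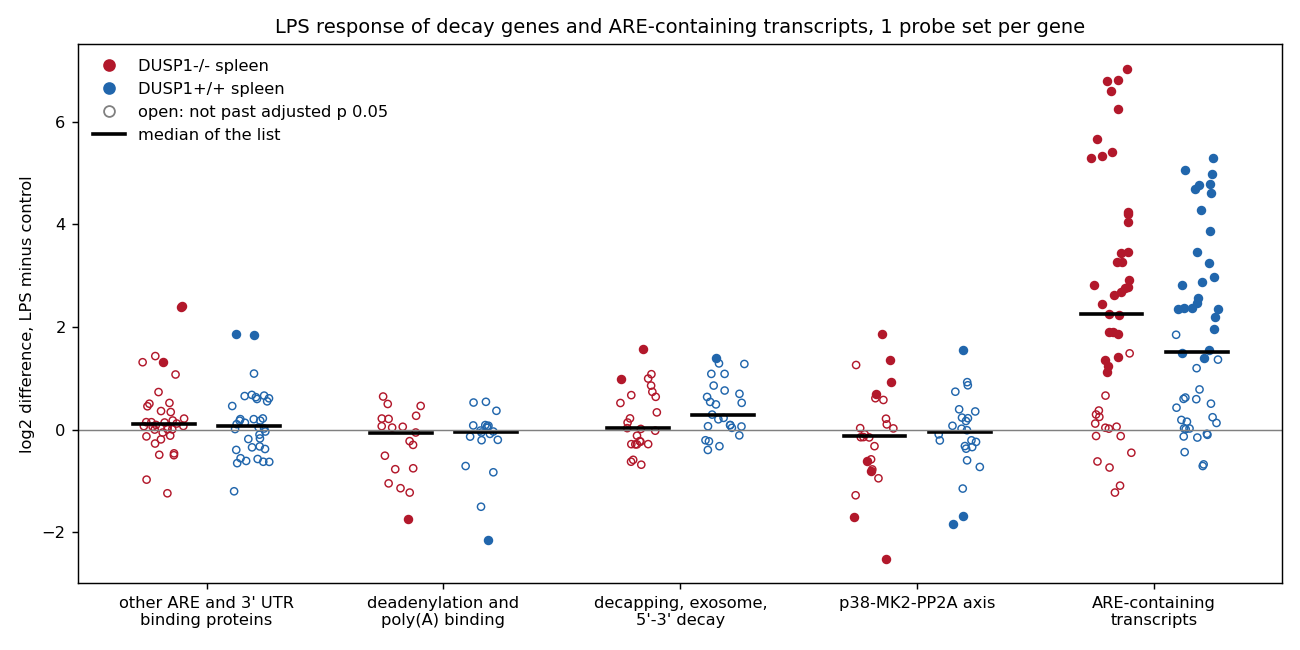
log2 LPS minus control difference of each measured gene of 5 lists, in DUSP1-/- (red) and DUSP1+/+ (blue) spleens, with the list's median as a bar and filled points for genes past an adjusted p of 0.05. The median is 2.25 and 1.52 for transcripts with AU-rich elements, and between -0.12 and 0.30 for the other lists in either genotype.

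Transcripts with known AU-rich elements, on which these proteins act, rose widely. Of 48 measured, 32 rose and none fell in DUSP1-/- spleens (66.7% beside 15.2% of all genes), and 25 rose and none fell in DUSP1+/+ spleens (52.1% beside 8.09%). Over all alternatives the counts of calls were 27 to 34 and 21 to 27. The list holds many cytokines long known to be induced by LPS and was written with earlier results of these arrays known, so its direction is not independent evidence. Il6 read 3021, 2069 and 3063 in DUSP1-/- LPS and 603, 183 and 585 in DUSP1+/+ LPS spleens, against 11, 59 and 13 in DUSP1-/- and 13, 11 and 14 in DUSP1+/+ controls, log2 differences of 7.04 and 4.99 (adjusted p = 8.11e-05 and 0.00115). The chemokines Cxcl2, Cxcl1 and Ccl3 rose by 6.81, 6.80 and 6.60 in DUSP1-/- and by 5.30, 5.06 and 4.79 in DUSP1+/+ spleens, with adjusted p of at most 0.00124. Ptgs2, the inducible cyclooxygenase, rose by 5.29 and 3.46 (adjusted p = 2.14e-05 and 0.000519), and Ier3, an early response gene that TTP is known to target, by 2.77 and 2.88 (adjusted p = 0.00453 and 0.00652). Csf2, which encodes GM-CSF, read 37, 46 and 63 in DUSP1-/- LPS spleens against 20, 31 and 17 in controls, a rise of 1.12 (adjusted p = 0.026) that was lost without DUSP1-/- control 1 or 3 or LPS 2 or 3 (adjusted p up to 0.105).

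Between the genotypes after LPS, 3 of 48 such transcripts passed the threshold, all higher in DUSP1-/-. That was 6.25%, beside 0.363% of all genes, 0.218% higher and 0.145% lower. The list's median difference was 0.55 beside 0.02 over all genes. Over all alternatives the count of calls was 0 to 21. As the list was written with earlier results of these arrays known, its share is not independent evidence. Ccl4, a chemokine, read 3299, 4141 and 3629 in DUSP1-/- LPS and 452, 945 and 651 in DUSP1+/+ LPS spleens, a difference of 2.49 ± 0.30 (adjusted p = 0.0118). Il10 read 305, 215 and 214 against 79, 89 and 55 in DUSP1+/+ LPS spleens, a difference of 1.73 ± 0.23 (adjusted p = 0.0173), and Lif, a cytokine of the IL-6 family, read 179, 143 and 130 against 40, 47 and 60 in DUSP1+/+ LPS spleens, a difference of 1.63 ± 0.20 (adjusted p = 0.0121). No DUSP1-/- value of these 3 genes overlapped a DUSP1+/+ value. Each call was lost without some single LPS array: Ccl4 without DUSP1-/- 2 or 3 or DUSP1+/+ 3 (adjusted p up to 0.0536), Lif without DUSP1-/- 1 or 3 or DUSP1+/+ 2 (up to 0.0742), and Il10 without any DUSP1-/- or without DUSP1+/+ 2 or 3 (up to 0.0712).

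Tnf, the best known target of TTP, had the opposite sign. It read 121, 145 and 120 in DUSP1-/- LPS and 272, 427 and 322 in DUSP1+/+ LPS spleens, against 66, 111 and 72 in DUSP1-/- and 70, 44 and 88 in DUSP1+/+ controls. All 3 DUSP1-/- LPS values lay below all DUSP1+/+ LPS values, and the difference was -1.38 ± 0.29 (SE, n = 3 per group) with an adjusted p of 0.0885. Its LPS difference was 2.37 ± 0.29 in DUSP1+/+ spleens (adjusted p = 0.00112) and 0.67 ± 0.29 in DUSP1-/- spleens (adjusted p = 0.178). Il6, Cxcl2, Ccl3 and Ptgs2 had differences of 2.74, 1.90, 2.16 and 1.79 in DUSP1-/- minus DUSP1+/+ after LPS, with no overlap between the genotypes and adjusted p of 0.112, 0.144, 0.0611 and 0.0884. For the difference of the 2 LPS responses, none of the 48 transcripts passed.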

How the data were processed

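Spleen total RNA, 5 µg per mouse, was hybridized to Affymetrix MOE430A 2.0 arrays, 12 arrays in 4 groups of 3, grouped by the sample titles. The deposited values are whole-number intensities on a linear scale, made by RMA in the R affy package, per the series' design text and the submitters' processing notes, with no version given. They were turned into log2 values here. After 64 control probe sets were left out, 22626 probe sets were fitted in R 4.3.3 with limma 3.58.1 (lmFit and eBayes, 4 group means, 8 residual degrees of freedom) for 6 comparisons, with Benjamini-Hochberg adjustment over all probe sets and a threshold of 0.05. The procedure was tested on simulated data. No 2 arrays shared more than 9.52% of their values, and their number limits the precision.

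A gene in a list was represented by its brightest probe set that names it alone, sets ending in _x_at left aside. Symbols came from GEO's platform annotation, in which 691 probe sets name several genes and 1555 none. Named list genes are up to 4 per comparison past the threshold, by size of difference, beside Dusp1, Mapk14, Mapkapk2, Tnf, Il6, Il10, Cxcl1, Cxcl2, Ptgs2, Ier3 and Csf2. For likeness, the 3 genes with the highest r were taken. The members and lists were chosen with earlier results of these data known. The mice of a group are biological replicates, per the series' design text.

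Alternatives were median centring, quantile normalization, cyclic loess, a floor of 20, only probe sets above the 40th percentile, array quality weights, an intensity trend, a replicate block, leaving out each array, leaving out the 3 arrays with pancreas transcripts, and only the 2 groups compared. Leaving out DUSP1+/+ controls 2 and 3 together was chosen after seeing the data.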

Additional observations from a re-analysis of the deposited data

Results flagged for a closer look

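Of the 9 member probe sets, 3 had every LPS array of one genotype on one side of its control mean and every LPS array of the other genotype on the other side. For Zfp36l1 (1450644_at) the DUSP1-/- minus DUSP1+/+ difference of LPS responses was 1.064 ± 0.33 (SE, limma adjusted p = 0.66), from responses of 0.92 and -0.14. For Zfp36l2 (1451034_at) it was 0.429 ± 0.561 (adjusted p = 1), from responses of 0.32 and -0.11. For Elavl1 (1431037_a_at) it was -1.073 ± 0.523 (adjusted p = 0.954), from responses of -0.51 and 0.56. None of these differences passed the test of the difference itself. The share of all probe sets that meet this rule was not counted, so whether 3 of 9 is unusual is not known.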

How the results depend on the processing

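With 1 member probe set past the threshold for LPS in DUSP1-/- spleens, 3 passed under median centring, 2 under each of cyclic loess, the filter on dim probe sets, array quality weights, the intensity trend and the replicate block, 0 with only the 2 groups fitted, and 0 to 1 without 1 array. For LPS in DUSP1+/+ spleens, 0 became 1 under array quality weights. Without the 3 arrays with pancreas transcripts, 0 became 1 for the genotype difference in controls and 1 for the difference of responses. For the averaged response, 2 became 1 under quantile normalization and under the floor of 20, and 1 to 2 without 1 array. Over all settings other than those without 1 array, the count ran from 1 to 3. Which members passed also changed: Zfp36 passed in 9 of 22 alternatives, and Zfp36l1 1450644_at, not called in the main fit, in 2. Replicate numbers did not pair the arrays as a rule: 6 of 18 pairs correlated above 0.1, and 4 of 12 arrays correlated best with their own number. The correlations ran from -0.584 to 0.629, the highest being between DUSP1-/- LPS replicate 2 and DUSP1+/+ LPS replicate 2.

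All sign changes were in differences that did not pass. Without the pancreas-bearing arrays the DUSP1-/- response was -0.228 for Zfp36l1 1422528_a_at and -0.598 for Zfp36l2 1451034_at, the DUSP1+/+ response -0.211 for Zfp36l1 1422528_a_at and -0.011 for Elavl1 1448151_at, and the difference of responses -0.079 for Zfp36l2 1451034_at and 0.262 for Hnrnpd. Without DUSP1+/+ controls 2 and 3 the DUSP1+/+ response was 0.063 for Zfp36l1 1450644_at, 0.624 for Zfp36l2 1437626_at and 0.704 for 1451034_at, and the difference of responses -0.386 for 1451034_at. The DUSP1+/+ response of 1451034_at was 0.008, 0.014 and 0.011 under median centring, quantile normalization and cyclic loess, and the Hnrnpd difference of responses 0.087 under median centring. Without 1 array, the DUSP1+/+ response ranged from -0.211 to 0.858 for 1422528_a_at, -0.739 to 0.003 for 1437626_at, -0.519 to 0.127 for 1451034_at and -0.011 to 0.375 for 1448151_at, and the Hnrnpd difference of responses from -0.192 to 0.151. Each of the first 2 settings leaves 1 control array for a genotype, assumed to vary like the other groups. The cause was not tested.

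Over all probe sets, the 72 genotype calls after LPS became 2063 under array quality weights, 19 under the replicate block, 0 with 2 groups fitted and 4 to 108 without 1 array; those among AU-rich transcripts, 3, became 21 at most and 0 at least. The 2869 calls for DUSP1-/- spleens ranged from 1485 to 3945 and the 1491 for DUSP1+/+ spleens from 565 to 2912. The share of calls that were higher was 40.4% in DUSP1-/- spleens, and 60.7%, 49.3% and 51.8% under median centring, quantile normalization and cyclic loess. In DUSP1+/+ spleens it was 51.4%, and 62.8% under median centring, which moved the median of all probe sets from -0.046 to 0.171 and from -0.016 to 0.104.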
